A study of Mus musculus with 10 samples.

Results

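The genes described here carry glucose into and out of the hepatocyte, run glycolysis and gluconeogenesis, admit fructose, and build and break down glycogen. The 31 members were taken from a written list by gene symbol. All 31 were among the 47702 genes of the deposited table, and all 31 had a mean of at least 0.5 FPKM (fragments scaled to transcript length and library size) and were therefore among the 12247 genes tested. RNA came from livers of female mice with a whole-body knockout of Etnppl (KO) and from wild-type females (WT), 5 libraries each. Chow was the diet of both genotypes for 20 weeks. The product of Etnppl is an enzyme that breaks down phosphoethanolamine. The strain, the age at harvest, the time of day and the feeding state at harvest are not given in the sources used here, nor is how the allele was made.

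The liver takes up glucose after a meal, stores it as glycogen and releases it again between meals. Glycogen is primed by glycogenin, extended from UDP-glucose by glycogen synthase, branched by the branching enzyme and broken down by glycogen phosphorylase, which phosphorylase kinase switches on. Regulatory subunits of protein phosphatase 1 hold that phosphatase on the glycogen particle, where it activates the synthase and inactivates the phosphorylase. Glycolysis and gluconeogenesis share their reversible steps and differ at those run by glucokinase and glucose-6-phosphatase, by phosphofructokinase and fructose bisphosphatase, and by pyruvate kinase on one side and phosphoenolpyruvate carboxykinase on the other.

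Promoter sequence is shown for a gene of glycogen synthesis that rose (Gbe1), for both members that fell (Phkg2 and Ppp1r3c) and for Pklr, which carries the textbook carbohydrate response element of the liver. Each runs 5′ to 3′ on the gene's own strand within the 250 bases before the RefSeq start (GRCm38.p6, the assembly of mm10), as the longest stretch free of annotated exons; for Pklr the RefSeq start whose window holds the element was taken. Capitals mark matches, on either strand, to the E-box CACGTG, the carbohydrate response element (CACNNG and CNNGTG with 5 bases between them), the cAMP response element TGACGTCA, the TATA box TATAAA or the CCAAT box CCAAT. The Gbe1 stretch (chr16:70313699-70313948, plus strand) held none of these letters. The Phkg2 stretch (chr7:127573117-127573339, plus strand) held 3 CCAAT boxes, and the Ppp1r3c stretch (chr19:36736654-36736854, minus strand) held an E-box that began 104 bases before the RefSeq start and a CCAAT box. The Pklr stretch (chr3:89136373-89136571, plus strand) held the carbohydrate response element, beginning 170 bases before the start, and a CCAAT box. The 51 bases between this stretch and the start are not shown. None of the matches overlapped another.
Gbe1: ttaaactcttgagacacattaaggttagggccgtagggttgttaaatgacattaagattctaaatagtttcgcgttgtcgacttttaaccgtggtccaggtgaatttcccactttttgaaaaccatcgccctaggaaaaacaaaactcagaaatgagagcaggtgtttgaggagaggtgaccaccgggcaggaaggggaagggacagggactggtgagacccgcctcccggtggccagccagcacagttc
Phkg2: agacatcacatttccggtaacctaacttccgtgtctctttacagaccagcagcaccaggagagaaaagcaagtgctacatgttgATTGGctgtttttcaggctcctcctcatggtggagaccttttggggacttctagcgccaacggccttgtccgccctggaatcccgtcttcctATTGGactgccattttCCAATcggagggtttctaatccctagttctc
Ppp1r3c: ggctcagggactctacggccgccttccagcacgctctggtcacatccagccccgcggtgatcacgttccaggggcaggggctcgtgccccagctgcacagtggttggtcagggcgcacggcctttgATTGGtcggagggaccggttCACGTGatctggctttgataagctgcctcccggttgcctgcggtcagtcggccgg
Pklr: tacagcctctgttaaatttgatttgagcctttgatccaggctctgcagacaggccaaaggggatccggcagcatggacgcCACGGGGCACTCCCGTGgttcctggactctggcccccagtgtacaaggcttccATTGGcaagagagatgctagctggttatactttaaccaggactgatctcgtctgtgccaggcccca
Promoter windows were matched for 28 of the 31 members. Among all 32851 windows, the carbohydrate response element stood in 0.387% and among the members in Pklr alone. The E-box stood in 6.02% of all windows and, among the members, in those of Khk, Ldha and Ppp1r3c. The CCAAT box stood in 33.8% of all windows and in those of 14 of the 28 members. The TATA box stood in 12.4% of all windows and in those of G6pc, Pfkfb1, Pklr and Slc37a4, for Pklr outside the stretch shown. The cAMP response element stood in 1.55% of all windows and, among the members, in that of Ldha. The shares of all windows count windows, whereas the members are counted as genes, and a gene such as Pklr can have more than 1 window. These figures are therefore in unlike units. A match describes these letters only.

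Etnppl itself, on chromosome 3 from 130617448 to 130637521 (mm10), was lower in every KO library (17.72 to 26.43 FPKM) than in every WT library (43.32 to 108.39 FPKM), and its KO mean was 33.7% of the WT mean. None of the members lies within 10 Mb of it. The libraries' relative depth, taken from the spacing of low values, was 0.896 to 1.102, with a WT mean of 1.055 and a KO mean of 0.95 (two-sided exact permutation p = 0.032, n = 5 each). The part of depth in the results was not tested. WT 3 lay closest to the KO libraries on the first principal component (-0.60, against -22.0 to -8.94 in the other WT libraries and 8.35 to 17.9 in KO). The labels name no batch, nor do they say whether libraries are separate animals. The p-values therefore cover the spread among these libraries, which may be technical.

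In KO livers 7 of the 31 members rose, 2 fell and 22 did not pass the test (limma, Benjamini-Hochberg adjusted p under 0.05 over all 12247 genes). The 9 called members were 29.0% of the list, against 8.54% of all genes tested, of which 3.98% were higher and 4.56% lower. Where a mean of at least 5 FPKM was required, 13.2% of the 7044 genes tested were called, with 8 members among them. The members were chosen with earlier results of these data known. At an unadjusted p under 0.05 there were 15 members, against 24.5% of all genes tested. Groups without overlap were found in 3 members above WT (Eno1, Gbe1 and Gyg) and 1 below (Phkg2), against 8.87% of all genes, 4.08% above and 4.78% below. Of the 9 calls, 6 were genes of glycogen metabolism. All 4 members of glycogen synthesis rose (Gyg, Ugp2, Gys2 and Gbe1), while Phkg2 of phosphorylase kinase and Ppp1r3c, a phosphatase targeting subunit, fell. Outside glycogen metabolism Eno1, Pgam1 and Gpt2 rose. The members had a median log2 difference, KO minus WT, of 0.07 on the log2(FPKM + 0.5) scale, where all genes tested had -0.02. Where every library was instead scaled to the same FPKM sum, 6 members were called, 4 higher and 2 lower, and 33.5% of the calls among all genes were higher in place of 46.7%. With the other 3 scalings the share was 52.0% (upper-quartile), 53.6% (median-of-ratios) and 56.1% (quantile), and the members kept 7 higher and 2 lower.

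**Figure D1:**
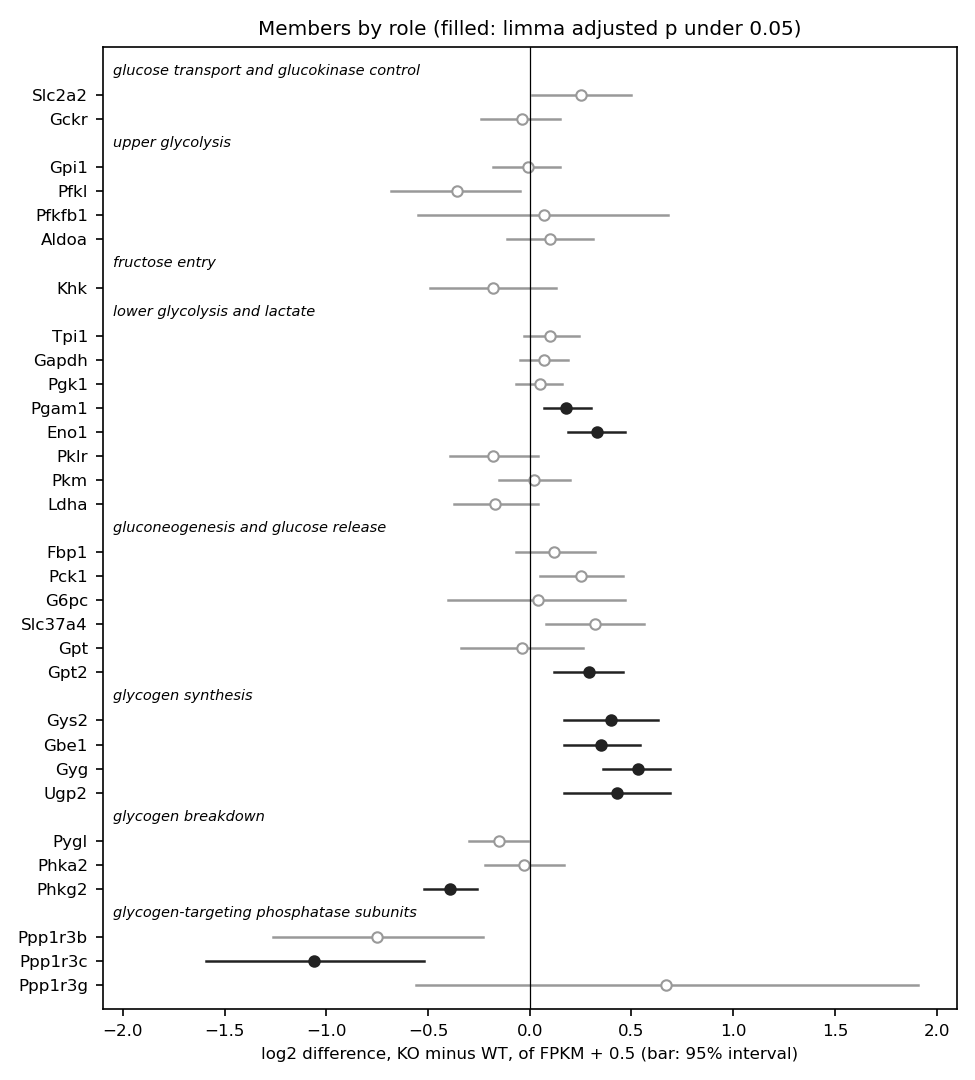
Log2 difference between KO and WT (x axis, log2 of FPKM + 0.5) of each of the 31 members, grouped by role, with 95% intervals from limma (n = 5 each). Filled points passed an adjusted p under 0.05; all 4 glycogen synthesis members lie to the right of 0, between 0.35 and 0.53.

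Glycogen synthesis was the role in which every member rose, with a median log2 difference of 0.42 over its 4 members. With no filter on low values Gyg alone of the 4 stayed called. The limma adjusted p was then 0.0593 for Gbe1, 0.0779 for Gys2 and 0.0900 for Ugp2. Gyg (ENSMUSG00000019528, chromosome 3, 20122084 to 20155317) encodes glycogenin, the protein that primes a glycogen particle, and had the lowest level of the 4. Its FPKM was 3.08, 3.01, 2.70, 3.23 and 3.34 in WT 1 to WT 5 and 4.82, 4.44, 4.75, 4.87 and 4.33 in KO 1 to KO 5. Every KO library lay above every WT library, WT 5 and KO 5 being the closest pair. The mean of 3.07 ± 0.244 FPKM in WT rose to 4.64 ± 0.242 FPKM in KO (SD, n = 5 each), which is 0.53 on the log2 scale (SE 0.07; adjusted p = 0.00267 by limma). This was the smallest p of the members, and Gyg stayed called whichever library was left out (limma adjusted p up to 0.00941).

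Gys2 (ENSMUSG00000030244, chromosome 6) encodes the liver form of glycogen synthase. Its FPKM was 65.47, 62.41, 72.08, 61.65 and 65.59 in WT 1 to WT 5 and 67.00, 80.27, 107.33, 90.86 and 91.76 in KO 1 to KO 5. KO 1 lay within the WT range and the other 4 KO libraries lay above it, KO 3 highest. The mean of 65.4 ± 4.11 FPKM in WT rose to 87.4 ± 14.96 FPKM in KO (SD, n = 5 each), which is 0.40 on the log2 scale (SE 0.11; adjusted p = 0.0387 by limma). The KO libraries were also more spread, with a coefficient of variation of 17.1% against 6.28% in WT. Without KO 1 the log2 difference was 0.49 (limma adjusted p = 0.00899). Gys2 also kept its call without WT 3, but not with any other single library left out (limma adjusted p up to 0.0872).

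Gbe1 (ENSMUSG00000022707, chromosome 16, 70313949 to 70569716), the branching enzyme, had 36.60, 29.45, 38.80, 34.39 and 31.68 FPKM in WT 1 to WT 5. In KO 1 to KO 5 it had 39.79, 41.06, 51.22, 44.04 and 42.85 FPKM. The groups did not overlap, although WT 3 and KO 1 lay within 1 FPKM of each other, and KO 3 was again highest. Its mean of 34.2 ± 3.74 FPKM in WT rose to 43.8 ± 4.46 FPKM in KO (SD, n = 5 each), which is 0.35 on the log2 scale (SE 0.09; adjusted p = 0.0298 by limma).

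Ugp2 (ENSMUSG00000001891, chromosome 11) makes UDP-glucose, the sugar donor of the synthase. It had 107.92, 96.96, 133.19, 84.57 and 82.26 FPKM in WT 1 to WT 5 and 123.94, 130.05, 130.49, 135.36 and 153.46 FPKM in KO 1 to KO 5. WT 3 was as high as the KO libraries, and the other 4 WT libraries were below all of them. The mean of 101 ± 20.7 FPKM in WT rose to 135 ± 11.3 FPKM in KO (SD, n = 5 each), which is 0.43 on the log2 scale (SE 0.12; adjusted p = 0.0456 by limma). Without WT 3 the log2 difference was 0.54 (limma adjusted p = 0.00668), and without any other single library Ugp2 lost its call (limma adjusted p from 0.0632 to 0.105).

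**Figure D2:**
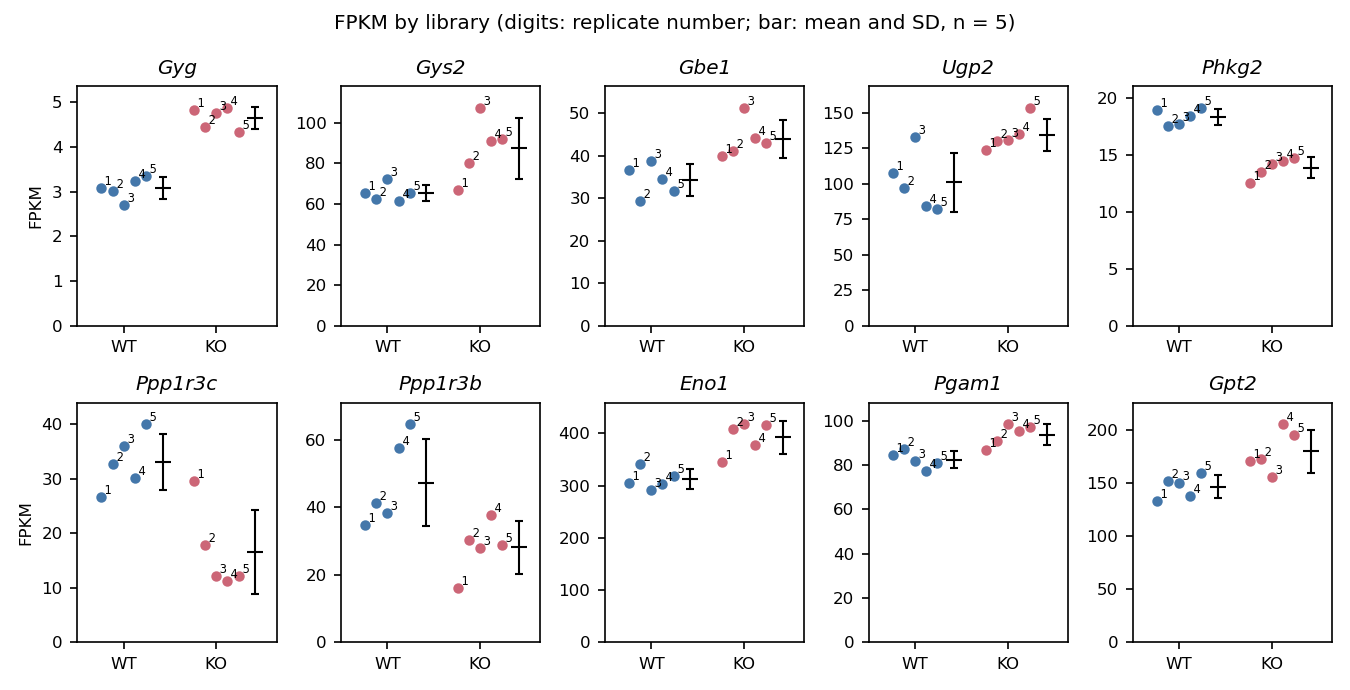
FPKM of the 9 called members and Ppp1r3b in each library (points, numbered by replicate; the number pairs no samples), with the mean and SD of 5 libraries per genotype beside them; the y axes start at 0. Gyg, Gbe1 and Eno1 were higher in every KO than in every WT library and Phkg2 lower, while KO 1 stayed in the WT range for Gys2 and Ppp1r3c.

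Of the 3 members of glycogen breakdown, Phkg2 fell and the other two did not pass. Phkg2 (ENSMUSG00000030815, chromosome 7, 127573340 to 127583307) encodes the liver form of the catalytic subunit of phosphorylase kinase. Its FPKM was 18.96, 17.59, 17.74, 18.39 and 19.15 in WT 1 to WT 5 and 12.53, 13.53, 14.24, 14.51 and 14.70 in KO 1 to KO 5. All KO libraries were below all WT libraries, and both groups were tight. The mean of 18.4 ± 0.700 FPKM in WT fell to 13.9 ± 0.886 FPKM in KO (SD, n = 5 each), which is -0.39 on the log2 scale (SE 0.06; adjusted p = 0.00346 by limma), and the call held whichever library was left out (limma adjusted p up to 0.0119). Ccdc189, which overlaps Phkg2 on the other strand, was at 0.780 FPKM in WT and 0.544 FPKM in KO.

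Pygl, liver glycogen phosphorylase, had 106.81 to 119.71 FPKM in WT (median 111.40) and 89.72 to 116.67 FPKM in KO (median 102.48). In KO, 4 of the 5 libraries were below the lowest WT library, but the log2 difference of -0.15 (SE 0.07) did not pass (limma adjusted p = 0.189). Phka2, the liver form of the regulatory alpha subunit of phosphorylase kinase, had a log2 difference of -0.03 (95% interval -0.22 to 0.17) and means of 7.09 and 6.95 FPKM in WT and KO. Phkb, the beta subunit, is not a member and was chosen after its values were seen; it was at 0.33 (limma adjusted p = 0.0554). Differences between the kinase subunits were not tested.

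The phosphatase targeting subunits had the largest differences of the list. Ppp1r3c (ENSMUSG00000067279, chromosome 19, 36731731 to 36736653), known as protein targeting to glycogen, had 26.69, 32.69, 35.99, 30.19 and 39.96 FPKM in WT 1 to WT 5. It had 29.60, 17.89, 12.17, 11.31 and 12.19 FPKM in KO 1 to KO 5. KO 1 lay inside the WT range, and the other 4 KO libraries were below every WT library. The mean of 33.1 ± 5.13 FPKM in WT fell to 16.6 ± 7.71 FPKM in KO (SD, n = 5 each), to 50.2% of WT, which is -1.06 on the log2 scale (SE 0.24; adjusted p = 0.0266 by limma). Without KO 1 it was -1.28 (limma adjusted p = 0.00189). With WT 2, WT 5, KO 3, KO 4 or KO 5 left out Ppp1r3c did not pass (limma adjusted p up to 0.0628).

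Clock genes were read beside Ppp1r3c, and both named here are no members and were chosen after their values were seen. Nr1d1, a repressor of the circadian clock, had 8.35, 8.93, 20.44, 19.41 and 24.34 FPKM in KO 1 to KO 5 and 6.48 to 12.37 FPKM in WT. KO 3 to KO 5, the 3 libraries with the lowest Ppp1r3c, were above the WT range, while KO 2, also below every WT library in Ppp1r3c, was inside it. Nr1d1 did not pass between the genotypes (0.76 on the log2 scale, limma adjusted p = 0.176). Arntl, an activator of the clock, had 7.43 to 9.52 FPKM in KO, KO 1 and KO 2 highest, and 10.03 to 13.76 FPKM in WT. It was lower in all 5 KO libraries and fell by 0.47 on the log2 scale (limma adjusted p = 0.0174). The part of the time of harvest in these values was not tested.

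Ppp1r3b, the main targeting subunit of liver, had 34.91, 41.32, 38.34, 57.52 and 64.64 FPKM in WT 1 to WT 5 and 16.10, 30.45, 27.87, 37.82 and 28.80 FPKM in KO 1 to KO 5. KO 4 alone reached the WT range, and KO 1, the KO library with the highest Ppp1r3c, had the lowest Ppp1r3b. WT averaged 47.3 ± 13.0 FPKM and KO 28.2 ± 7.82 FPKM (SD, n = 5 each). On the log2 scale this was -0.75 (SE 0.23), which did not pass (limma adjusted p = 0.0770). Ppp1r3g, a targeting subunit of low level, ranged from 0.20 to 3.76 FPKM in WT (median 0.72) and from 0.53 to 3.51 FPKM in KO (median 2.05). The groups overlapped over nearly their whole range, and the log2 difference was 0.67 (95% interval -0.56 to 1.91, limma adjusted p = 0.505).

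**Figure D3:**
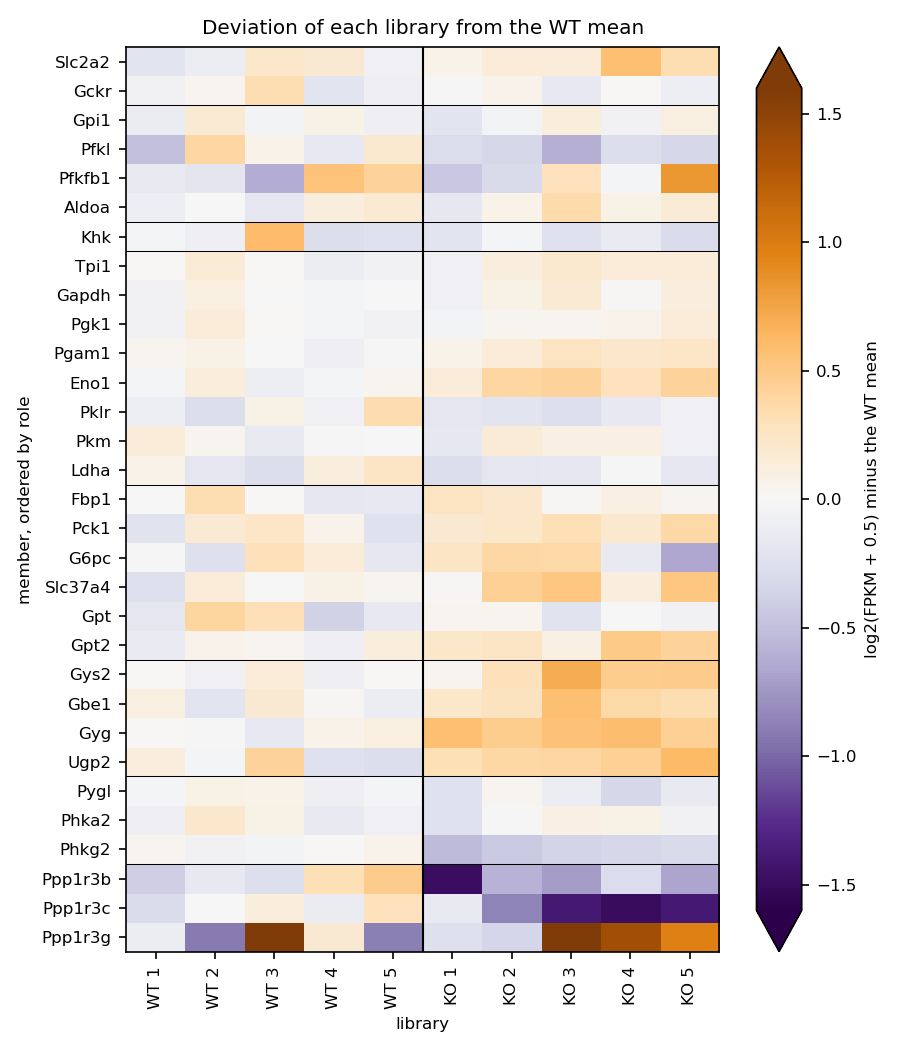
Colour shows log2(FPKM + 0.5) of each member (rows, ordered by role) in each library (columns) minus its WT mean, and the colour scale is clipped at 1.6 in both directions. The glycogen synthesis rows are raised across the KO columns apart from Gys2 in KO 1, Phkg2 is lowered in all of them, and Ppp1r3c is near the WT mean in KO 1.

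Of the 15 members of glucose entry, glycolysis, fructose entry and lactate formation, 2 rose and none fell by limma. Slc2a2 and Pfkl had an unadjusted p under 0.05 but did not pass. Slc2a2, the main hepatic glucose transporter, had 60.90 to 82.15 FPKM in WT and 73.85 to 106.23 FPKM in KO, with KO 4 highest, and which is 0.25 on the log2 scale (SE 0.11; adjusted p = 0.182 by limma). Gckr, the protein that holds glucokinase inactive in the nucleus, had means of 68.7 and 66.2 FPKM and a log2 difference of -0.04 (95% interval -0.24 to 0.15).

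None of the 4 members of upper glycolysis passed. Pfkl, the liver phosphofructokinase, had 6.60, 12.66, 9.98, 8.44 and 10.88 FPKM in WT 1 to WT 5 and 7.71, 7.43, 6.09, 7.80 and 7.43 FPKM in KO 1 to KO 5. The KO libraries lay close together at the low end of a wide WT range, with KO 3 just below it, and WT 1 was the lowest WT library. KO minus WT was -0.36 on the log2 scale (SE 0.14) and did not pass (limma adjusted p = 0.146), but without WT 1 it was -0.49 and passed (limma adjusted p = 0.0360). Gpi1, the isomerase of glucose 6-phosphate and fructose 6-phosphate, had a log2 difference of -0.01 (95% interval -0.18 to 0.15). Aldoa, the widely expressed aldolase, had 0.10 (-0.11 to 0.31). Pfkfb1, the liver bifunctional enzyme that makes and degrades fructose 2,6-bisphosphate, varied most among these 4, from 9.39 to 21.64 FPKM in WT and from 10.68 to 26.72 FPKM in KO, with a log2 difference of 0.07 (95% interval -0.55 to 0.68).

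Khk, the kinase that commits fructose to metabolism, was at 133.65 to 157.25 FPKM in 4 WT libraries, at 244.89 FPKM in WT 3 and at 131.01 to 157.41 FPKM in KO. Apart from WT 3 the genotypes overlapped, and the log2 difference of -0.18 (SE 0.14) did not pass (limma adjusted p = 0.483).

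In lower glycolysis Eno1 and Pgam1, which act in consecutive steps, rose, and the other 6 members did not pass. Eno1 (ENSMUSG00000063524, chromosome 4), the widely expressed enolase, had 305.38, 342.07, 291.07, 303.58 and 318.07 FPKM in WT 1 to WT 5. It had 344.30, 408.82, 417.34, 378.00 and 415.40 FPKM in KO 1 to KO 5. The groups were separated, narrowly between WT 2 and KO 1. The mean of 312 ± 19.3 FPKM in WT rose to 393 ± 31.4 FPKM in KO (SD, n = 5 each), which is 0.33 on the log2 scale (SE 0.07; adjusted p = 0.0125 by limma), and the call held whichever library was left out (limma adjusted p up to 0.0353).

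Pgam1 (ENSMUSG00000011752, chromosome 19), a phosphoglycerate mutase, had 84.70, 87.36, 81.70, 77.56 and 81.08 FPKM in WT 1 to WT 5 and 86.65, 90.95, 98.41, 95.49 and 96.98 FPKM in KO 1 to KO 5. KO 1 was below WT 2 and the other 4 KO libraries were above all WT libraries. The log2 difference of 0.18 (SE 0.05) passed by the narrowest margin of the 9 (limma adjusted p = 0.0497). Pgam1 and Pgk1 have copies elsewhere in the genome that can share reads: Pgam1-ps2 averaged 3.22% of the FPKM of Pgam1, Pgk1-rs7 1.48% of that of Pgk1, and Eno1b, a copy of Eno1, did not exceed 0.11 FPKM. Further copies of Gapdh, Aldoa, Tpi1 and Ldha were not analysed here.

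The remaining members of lower glycolysis differed little. Gapdh, often used as a reference gene, was at 1379 to 1539 FPKM in WT and 1366 to 1613 FPKM in KO, a log2 difference of 0.07 (95% interval -0.05 to 0.19). Tpi1, triose phosphate isomerase, had 0.10 (-0.03 to 0.24) and Pgk1, phosphoglycerate kinase, 0.05 (-0.07 to 0.16). Pkm, the pyruvate kinase of most tissues other than liver, had means of 7.48 and 7.61 FPKM and a log2 difference of 0.02 (-0.15 to 0.20).

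Pklr, the liver pyruvate kinase, had 29.20, 25.67, 32.80, 29.60 and 39.72 FPKM in WT 1 to WT 5 and 27.24, 26.91, 25.91, 27.86 and 29.47 FPKM in KO 1 to KO 5. All KO libraries lay inside the WT range, with -0.18 on the log2 scale (SE 0.10; adjusted p = 0.294 by limma). Ldha, a lactate dehydrogenase subunit, had 716.65 to 1027.77 FPKM in WT and 718.48 to 850.22 FPKM in KO, also within the WT range, with which is -0.17 on the log2 scale (SE 0.09; adjusted p = 0.304 by limma).

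Among the 6 members of gluconeogenesis and glucose release, Gpt2 rose and 5 did not pass, and 5 of the 6 log2 differences were above 0 (median 0.19). Gpt2 (ENSMUSG00000031700, chromosome 8), the mitochondrial alanine aminotransferase, had 133.45, 151.44, 149.56, 138.06 and 159.81 FPKM in WT 1 to WT 5 and 170.42, 172.67, 155.58, 205.23 and 195.05 FPKM in KO 1 to KO 5. KO 3 was below WT 5, and the other 4 KO libraries exceeded every WT library. On the log2 scale Gpt2 was up by 0.29 (SE 0.08; adjusted p = 0.0441 by limma). It kept its call without KO 3 but in no other case where 1 library was left out (limma adjusted p from 0.0516 to 0.102). Gpt, the cytosolic form of the enzyme, had means of 99.6 ± 23.6 and 94.8 ± 6.71 FPKM (SD, n = 5 each) and a log2 difference of -0.04 (95% interval -0.34 to 0.26).

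Pck1, cytosolic phosphoenolpyruvate carboxykinase, had the highest FPKM of the members. It had 1542.13, 2017.97, 2107.95, 1862.59 and 1522.58 FPKM in WT 1 to WT 5 and 2026.27, 2080.27, 2229.63, 2059.70 and 2309.53 FPKM in KO 1 to KO 5. All KO libraries were above 4 of the WT libraries apart from WT 3, and KO was less spread, with a coefficient of variation of 5.71% against 14.8%. The log2 difference of 0.25 (SE 0.09) did not pass (limma adjusted p = 0.121). Slc37a4, which carries glucose 6-phosphate into the endoplasmic reticulum, had 76.49 to 100.67 FPKM in WT and 91.71, 123.65, 130.00, 98.84 and 129.99 FPKM in KO 1 to KO 5. Its log2 difference of 0.32 (SE 0.11) did not pass (limma adjusted p = 0.0949), but did without KO 1 (0.40, limma adjusted p = 0.0404).

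G6pc, the catalytic subunit of glucose-6-phosphatase, had 272.32 to 395.10 FPKM in WT and 381.20, 417.66, 415.87, 292.07 and 203.56 FPKM in KO 1 to KO 5. KO 2 and KO 3 were above the WT range, KO 1 and KO 4 inside it and KO 5 below it, and the log2 difference was 0.04 (95% interval -0.40 to 0.47). Fbp1, the gluconeogenic fructose bisphosphatase, had means of 723 ± 107 and 784 ± 55.5 FPKM (SD, n = 5 each) and which is 0.12 on the log2 scale (SE 0.09; adjusted p = 0.437 by limma).

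Ratios of opposed or paired members within a library do not depend on how libraries are scaled. Of 6 ratios, that of Gys2 to Pygl, synthase against phosphorylase, passed after adjustment. It was 0.592, 0.521, 0.606, 0.577 and 0.589 in WT 1 to WT 5 and 0.693, 0.688, 1.02, 1.01 and 0.895 in KO 1 to KO 5. Every KO library was above every WT library, KO 1 and KO 2 least so. The log2 difference was 0.56 (exact permutation test, two-sided, p = 0.0079, the smallest that 252 arrangements allow, adjusted p = 0.048 over the 6 ratios, higher in 5 of 5 KO libraries). It did not pass with WT 1, WT 2, WT 3, WT 4 or WT 5 left out (exact permutation test, adjusted p from 0.060 to 0.079). In each of these cases every KO library stayed above every remaining WT library, with a log2 difference of 0.522 to 0.577.

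Fbp1 to Pfkl had means of 77.2 ± 18.2 in WT and 108 ± 8.61 in KO (SD, n = 5 each; exact permutation p = 0.024, adjusted p = 0.071). WT 1, at 107.9, stood within the KO range of 98.5 to 119.1 and the other WT libraries were at 59.4 to 75.5. Pck1 to Pklr had means of 59.4 ± 14.9 and 78.0 ± 4.88 (exact permutation p = 0.040, adjusted p = 0.079), with WT 2 alone inside the KO range. Both ratios passed with that WT library left out (adjusted p = 0.048 for each, exact permutation test), which removes the only overlap between the genotypes. With any other single library left out neither passed (exact permutation test). The adjusted p was then 0.060 to 0.095 for Fbp1 to Pfkl and 0.060 to 0.14 for Pck1 to Pklr. Gpt2 to Gpt (log2 difference 0.33, exact permutation p = 0.063), Pkm to Pklr (0.20, exact p = 0.21) and G6pc to Slc37a4 (-0.28, exact p = 0.37) did not pass.

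**Figure D4:**
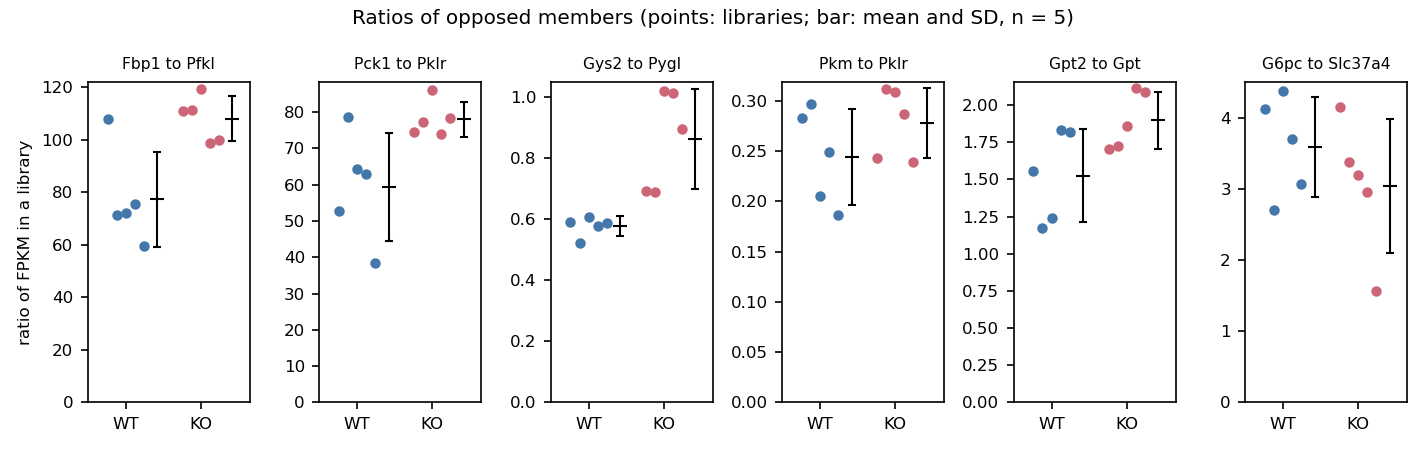
Ratio of the FPKM of 2 members in each library (points, WT 1 to WT 5 and KO 1 to KO 5 from left to right) with the mean and SD of 5 libraries; the y axes start at 0. Only Gys2 to Pygl, of the 6 ratios shown, separates the genotypes, with WT at 0.521 to 0.606 and KO at 0.688 to 1.02.

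Other genes of the same pathways were taken from lists that are not part of the 31 members. Of 19 tested further genes of glycogen metabolism, 2 rose and none fell (10.5% called, against 8.54% of all genes tested). Gaa, the lysosomal glucosidase that digests glycogen, rose from 58.0 ± 4.37 to 69.7 ± 2.29 FPKM (SD, n = 5 each; log2 difference 0.27, limma adjusted p = 0.0185). The gene that the table names Pgm1 (ENSMUSG00000029171, chromosome 5), named Pgm2 in the GENCODE annotation, rose from 2.47 ± 0.319 to 3.85 ± 0.397 FPKM (log2 difference 0.55, limma adjusted p = 0.00708). The far more abundant phosphoglucomutase that the table names Pgm2 (ENSMUSG00000025791, chromosome 4), named Pgm1 in that annotation, had 97.9 and 94.1 FPKM and a log2 difference of -0.06 (limma adjusted p = 0.602).

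Of 20 tested further genes of glycolysis, 2 fell. Ldhd, a mitochondrial dehydrogenase of D-lactate, fell from 43.0 ± 2.48 to 31.3 ± 3.18 FPKM (SD, n = 5 each; -0.46 on the log2 scale, limma adjusted p = 0.00406). Galm, which interconverts the anomers of hexoses, fell by 0.19 on the log2 scale (limma adjusted p = 0.0431).

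Galm also counts among 10 genes of fructose and galactose use. There Sord, which makes fructose from sorbitol, fell from 410 ± 25.5 to 304 ± 13.7 FPKM (log2 difference -0.43, limma adjusted p = 0.00152). None of 9 pentose phosphate genes was called by limma, while Taldo1 (-0.18, limma adjusted p = 0.0976) and G6pdx (-0.24, limma adjusted p = 0.191), 2 in number, had an unadjusted p under 0.05.

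Of 20 tested further genes that supply gluconeogenesis, 3 rose and none fell, where 8.54% of all genes tested were called. The mitochondrial malate dehydrogenase Mdh2 rose (log2 difference 0.24, limma adjusted p = 0.0169). The oxoglutarate carrier Slc25a11 (0.41, limma adjusted p = 0.00652) and the dicarboxylate carrier Slc25a10 (0.55, limma adjusted p = 0.0342) also rose. Of the 20 log2 differences 11 were above 0 and 9 below, with a median of 0.03. Other mitochondrial genes of this list did not pass, such as Got2 (0.09) and Pcx (-0.05).

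Of 23 genes of hormonal control, 2 rose (8.70% called, against 8.54% of all genes tested). Igfbp1, which insulin represses, went from 361 ± 160 to 785 ± 181 FPKM (1.19 on the log2 scale, limma adjusted p = 0.0199), and Prkar1a, a regulatory subunit of protein kinase A, rose by 0.16 (limma adjusted p = 0.0402). The rest did not pass. None of 11 genes of glucose-responsive transcription was called by limma, and 3 had an unadjusted p under 0.05: Usf2 (-0.24, limma adjusted p = 0.0535), Mlx (0.17) and Mlxipl (-0.19, named after its value was seen). Of the 11 log2 differences 9 were below 0 and 2 above. The summed FPKM of the 11 was lower in every KO library (289 to 332) than in every WT library (340 to 371). The exact permutation p was 0.0079, without adjustment over lists, and such a sum rests most on its most abundant genes. Mlxipl encodes ChREBP, the factor that binds the carbohydrate response element. Of 12 genes raised by fasting none was called by limma, at an adjusted or an unadjusted p under 0.05 (0 in both cases). These 12 do not include Igfbp1 or the member Pck1. The smallest p values were those of Tat (0.50, limma adjusted p = 0.228) and Ppargc1a (0.80, limma adjusted p = 0.286). The list's summed FPKM ran from 8013 to 9358 in WT and from 8399 to 9277 in KO. Of 11 tested genes raised by feeding, Elovl6 (0.46) and Acaca (0.42) rose and the rest did not pass (18.2% called). The summed FPKM of this list was 292 to 628 in WT and 297 to 374 in KO.

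Markers of the cells that a liver sample holds were read in the same libraries. Of 12 Kupffer cell and macrophage markers 5 fell (Clec4f, Vsig4, Csf1r, C1qa and Folr2). That is 41.7% called, against 8.54% of all genes tested, of which 4.56% were lower. The summed FPKM of the 12 was 297 to 344 in WT and 207 to 299 in KO (exact permutation p = 0.016). Sums of 9 endothelial markers were 184 to 194 in WT and 174 to 192 in KO (exact permutation p = 0.048). None of these 9 was called by limma, with 2 at an unadjusted p under 0.05. Sums of 8 stellate cell and fibroblast markers, of which 1 fell (12.5% called), were 116 to 151 in WT and 106 to 125 in KO (exact permutation p = 0.04). Of 9 hepatocyte markers 2 rose and 1 fell (33.3% called), with sums of 82818 to 89481 in WT and 88101 to 95563 in KO (exact permutation p = 0.024). Of 9 periportal markers, Cps1, Hsd17b13 and Cyp2f2 rose (33.3% called). The list's summed FPKM was 46163 to 48466 in WT and 50347 to 52259 in KO (exact permutation p = 0.0079), most of it from Alb. The list also holds the member Pck1. Of 9 pericentral markers Rgn, Gulo and Axin2 fell and Slc1a2 rose (44.4% called), with sums of 6684 to 7712 in WT and 7042 to 7556 in KO (exact permutation p = 0.79). The part of these cells and zones in the results for the members was not tested. Muscle markers summed to at most 0.25 FPKM, with Myh4 and Myl1 at 0 in every library. In bulk tissue, fewer cells of a type and less RNA per cell cannot be told apart.

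The calls of the members differed in how far they rested on single libraries. Eno1, Gyg and Phkg2 stayed called in each of the 10 cases where 1 library was left out. Ppp1r3c stayed called in 5, and did not pass with WT 2, WT 5, KO 3, KO 4 or KO 5 left out (limma adjusted p up to 0.0628). Gbe1 stayed called in 4; leaving out WT 2, WT 4, WT 5, KO 3, KO 4 or KO 5 ended its call (limma adjusted p up to 0.0703). Gys2 stayed called without WT 3 or KO 1 and Pgam1 without WT 2 or KO 1, and with any other single library left out the limma adjusted p of Gys2 was up to 0.0872 and that of Pgam1 up to 0.114.

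**Figure D5:**
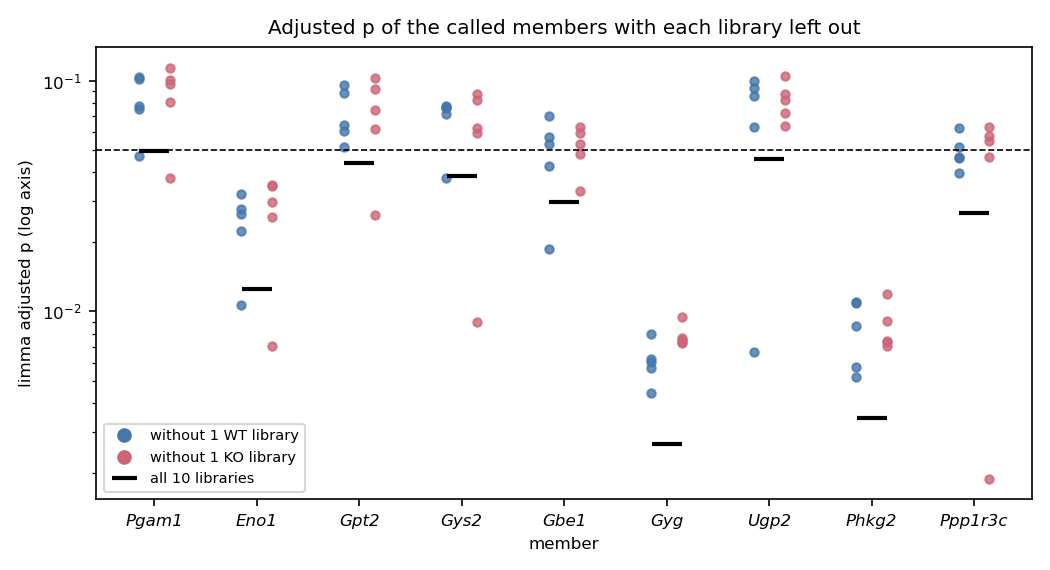
Limma adjusted p (log axis) of the 9 called members with each of the 10 libraries left out in turn (points) and with all libraries (bars); the dashed line is 0.05. Eno1, Gyg and Phkg2 lie below the line throughout, and the other 6 members have points on both sides of it.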

How the data were processed

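Poly-A selected liver RNA gave paired-end reads, per the labels. The authors deposited 1 table of FPKM, with a row for each gene and a column for each library. The submitters' processing notes list STAR, RSEM, R 4.0.2, DESeq, DESeq2 and mm10 but assign them no steps. Which annotation release was used, and whether counting used strand, is not given in the sources used here, so overlapping and antisense genes can share reads. Total reads were not analysed here. Relative depth came from 55 low genes, of whose values 91.6% lay within 0.15 of a whole step.

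FPKM as deposited was taken as log2(FPKM + 0.5), which understates changes of low genes. A mean of 0.5 FPKM or more over the 10 libraries admitted a gene to a two-sided test of genotype in limma 3.58.1 under R 4.3.3, with trended and robust eBayes and no covariate, with Benjamini-Hochberg adjustment over all 12247 genes. The fit was checked on simulated data. Ratios and the summed FPKM of gene lists were compared with two-sided exact permutation tests, the sums on the log2 scale and without adjustment over lists.

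The members and lists were chosen with earlier results of these data known. Named genes were the 31 members, Etnppl, and for each list of other pathway genes or feeding states, the called genes where at most 6 were called and the 2 with the smallest p. A result among the lists of other pathway genes is not reported here. Marker genes and others named were chosen after their values were seen. Alternatives were 2 other pseudocounts, 2 filters, 4 scalings, a non-robust fit, library weights, a replicate block and each library left out. Positions came from GENCODE M21 (GRCm38) and promoters from RefSeq. Figures used matplotlib 3.10.9 in Python 3.11.15.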

Additional observations from a re-analysis of the deposited data

Results flagged for a closer look

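Within each genotype, a library far from the remaining 4 was looked for in the 31 members and 6 ratios. Of 74 groups 5 held such a library, where chance alone gives about 1 in 20, or 3.7. WT 3 had 244.89 FPKM of Khk, where the remaining WT libraries had 133.65 to 157.25, and 3.76 FPKM of Ppp1r3g, where they had 0.20 to 0.98. WT 2 had 1538.89 FPKM of Gapdh, where the rest of WT had 1379 to 1418, and 148.39 FPKM of Pgk1, where they had 128.74 to 134.31. KO 3 had 6.09 FPKM of Pfkl, where the rest of KO had 7.43 to 7.80. None of these 5 members was called between the genotypes by limma.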

How the results depend on the processing

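The 7 higher and 2 lower members kept both counts under 7 of 11 other settings. Members higher became 2 with no filter on low values (21111 genes tested), 4 with equal library sums, 4 with a replicate block and 6 with a mean of at least 5 FPKM, where Gyg was not tested. The 2 left with no filter were Eno1 and Gyg. With equal library sums Gys2 did not pass (limma adjusted p = 0.0558). Without 1 library, which leaves fewer samples, they ranged from 2 to 6 higher and from 1 to 3 lower. Over all genes the 488 higher and 558 lower became 294 and 370 with no filter and 230 and 321 with a replicate block, and ranged from 258 to 454 and from 316 to 541 without 1 library. Replicate numbers are not known to pair the samples: same-numbered libraries had correlations of deviations from -0.207 to 0.208, above 0.1 in 2 of 5 pairs, and 2 of 5 WT libraries were closest to their own number. The block left 6 members called, 5 of them called without it; Ppp1r3b was added (limma adjusted p = 0.0238), while Pgam1, Gpt2, Ugp2 and Ppp1r3c (limma adjusted p = 0.0755) did not pass. The ratio of Gys2 to Pygl had a log2 difference of 0.559 with the replicate block (adjusted p = 0.12; 5 sign-flipped pairs, which cannot reach an exact p under 0.05) and 0.492 to 0.634 without 1 library. Without 1 library the ratio of Fbp1 to Pfkl ranged from 0.421 to 0.637 and that of Pck1 to Pklr from 0.283 to 0.542. Members near 0 changed sign without passing: Gpi1 was 0.003 with median-of-ratios scaling and 0.012 with quantile normalization, Pkm -0.007 with equal library sums and Gpt 0.011 with library weights. Without 1 library the ranges were -0.095 to 0.039 for Gckr, -0.052 to 0.033 for Gpi1, -0.127 to 0.200 for Pfkfb1, -0.014 to 0.068 for Pkm, -0.046 to 0.213 for G6pc, -0.135 to 0.058 for Gpt and -0.062 to 0.026 for Phka2. No other member changed sign under the 11 settings or without 1 library. Low FPKM, as in Ppp1r3g and Gyg, and 5 libraries per group limit what can be detected.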
